A study of Mus musculus with 12 samples.

Results

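The adipocyte programme and the handling of fatty acids were followed through 10 genes, taken by symbol from a table of 54100 genes. They are the transcription factors Cebpa, Cebpb, Cebpd and Pparg and the lipid genes Lpl, G0s2, Fabp4, Plin2, Apoe and Cd36. Of the 10 genes, 9 had enough counts to be tested, among 8161 tested genes in all, and Pparg did not. The cells were fibro-adipogenic progenitors (FAPs), Pdgfra-positive mesenchymal cells of mouse skeletal muscle, sorted from the plantaris, a calf muscle. Mice had surgery to overload the muscle or a sham operation. Control mice were Pdgfra-CreERT2, and knockout mice (cdKO) were Pdgfra-CreERT2 with Yap1 flox/flox and Taz flox/flox. Both genotypes therefore carried the inducible Cre driven from Pdgfra. With 2 genotypes and 2 loads there were 4 groups of 3 libraries, and each library came from a tube of 1000 sorted cells. The sources used here do not give strain, age, induction of Cre, days after surgery or whether animals were pooled. They also do not say whether replicates were separate mice, so every p-value below measures the spread between libraries, which may be technical.

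Adipogenesis runs as a cascade of transcription factors. Cebpb and Cebpd are induced early and switch on Pparg and Cebpa, which maintain each other and activate genes of the mature adipocyte. Fatty acids reach such a cell when lipoprotein lipase (Lpl) frees them from circulating triglyceride and Cd36 takes them up. Fabp4 carries them through the cytosol, Plin2 coats the droplets that store them, G0s2 restrains the lipase that releases them, and Apoe carries lipid on lipoprotein particles. FAPs can form fat in diseased muscle. Yap1 and Taz (gene symbol Wwtr1) are co-activators of the Hippo pathway, which responds to mechanical cues. Comparing the 4 groups asks how these genes differ between loaded and sham muscle, and whether that difference changes in cdKO FAPs.

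Library totals ran from 336437 to 1564581 counts, and levels are given as counts-per-million (CPM) after TMM scaling. At this depth 3 counts in a library correspond to 1.95 to 9.72 CPM. Wwtr1 stood at 108 to 174 CPM in the 6 control libraries and at 18.2 to 40.6 CPM in the 6 cdKO libraries, and the ranges of Yap1 overlapped (39.7 to 108 and 22.1 to 71.5 CPM). Reads counted to both targeted genes thus remained in cdKO libraries, and Yap1 did not pass between genotypes in sham or overloaded muscle (adjusted p 0.999 and 0.586). Counts per gene do not show whether these reads came from transcripts that lacked the part removed by Cre, so they do not measure how complete the knockout was. Pdgfra, the gene of the sort, was counted in every library (259 to 900 CPM), and 17 of 18 listed FAP markers had enough counts to be tested. FAP markers themselves moved with overload: 3 rose and 10 fell in control (median -1.30), and 3 rose and 9 fell in cdKO (median -1.08). Over all tested genes, 10.6% rose and 11.0% fell in control, and 6.37% rose and 6.68% fell in cdKO. Pdgfra fell in cdKO (-1.09, SE 0.26, adjusted p 0.0062) and was at -0.48 in control (SE 0.26, adjusted p 0.186). The part of this in the results below was not tested. The control overload libraries were unlike each other. Y-linked genes summed to 64.9 and 74.7 CPM in replicates 2 and 3, against 121 to 300 CPM in the other 10 libraries, and replicate 1 had the most RNA of endothelial markers in its group. In bulk RNA, fewer cells of a type and less RNA per cell cannot be told apart.

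Stretches of 250 bases upstream of annotated starts (RefSeq, GRCm38.p6) are shown for G0s2 and Apoe, whose levels moved together, for Cebpb, which did not move with them, and for Pparg, the target of the C/EBP factors in the cascade. RefSeq promoters were matched for 7 of the 10 genes, and Cebpd, Lpl and Fabp4 were not among them. Capitals mark matches, on either strand, to 6 motifs. A C/EBP site (TTGCNNAA) was present in 9.56% of 32851 promoters, a PPAR and RXR element (AGGTCA repeated after 1 base, known as DR1) in 0.0335%, and the single AGGTCA that this element contains in 14.0%. A TEAD site (GGAATG) was present in 12.6%, a TATA box (TATAAA) in 12.4% and a GC box (GGGCGG) in 32.7%. Each sequence is written 5′ to 3′ along its gene and ends at the base before the start.
G0s2, chr1:193273189-193273438, minus strand: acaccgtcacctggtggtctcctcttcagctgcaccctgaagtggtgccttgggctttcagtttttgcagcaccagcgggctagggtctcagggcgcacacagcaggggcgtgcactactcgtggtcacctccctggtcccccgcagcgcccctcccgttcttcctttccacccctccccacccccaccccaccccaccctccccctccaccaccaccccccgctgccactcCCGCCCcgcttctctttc
Apoe (first start), chr7:19699189-19699438, minus strand: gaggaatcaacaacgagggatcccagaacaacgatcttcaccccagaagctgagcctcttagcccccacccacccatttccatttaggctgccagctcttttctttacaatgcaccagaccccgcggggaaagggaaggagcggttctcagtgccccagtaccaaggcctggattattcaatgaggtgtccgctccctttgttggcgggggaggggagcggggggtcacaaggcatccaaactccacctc
Cebpb, chr2:167688665-167688914, plus strand: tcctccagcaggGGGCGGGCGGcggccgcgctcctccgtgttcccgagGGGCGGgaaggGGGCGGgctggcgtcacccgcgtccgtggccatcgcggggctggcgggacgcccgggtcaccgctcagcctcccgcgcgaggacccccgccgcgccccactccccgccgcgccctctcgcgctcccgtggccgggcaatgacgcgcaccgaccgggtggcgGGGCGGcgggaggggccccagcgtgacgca
Pparg (the third start), chr6:115421816-115422065, plus strand: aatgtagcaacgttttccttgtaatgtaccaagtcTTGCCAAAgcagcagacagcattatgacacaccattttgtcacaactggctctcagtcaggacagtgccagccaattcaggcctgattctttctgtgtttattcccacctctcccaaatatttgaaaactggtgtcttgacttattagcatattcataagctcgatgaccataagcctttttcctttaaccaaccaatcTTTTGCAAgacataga

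The G0s2 stretch held 1 GC box, and the stretch at the first Apoe start held none of the 6 motifs. Of the other Apoe starts, the second held 2 TATA matches and the third a TEAD match, 130 to 125 bases before it, the only TEAD letters among the matched starts. Cebpb had 5 GC boxes, the first pair overlapping, in a stretch that was 81.6% G and C. The third start of Pparg lies inside the gene, in an intron of its longer transcripts, and its stretch held 2 C/EBP matches, 215 to 208 and 16 to 9 bases before the start. No other start of the 7 matched genes held the C/EBP letters, and none held the full PPAR and RXR element, which was rare among all promoters. A match describes letters only.

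Of the early factors of the cascade, Cebpd was lower after overload in control FAPs, whereas Cebpb showed no shift. Cebpd (chromosome 16, 15887286 to 15891031, plus strand, GRCm38) stood at 736, 1111 and 1014 CPM in control sham replicates 1 to 3. In control overload it stood at 352, 243 and 210 CPM. The groups did not overlap, as was true in this direction of 18.9% of tested genes. It fell in control FAPs by 1.84 on the log2 scale (SE 0.30, 95% interval -2.46 to -1.21), with an adjusted p of 0.000113 in edgeR's quasi-likelihood test with Benjamini-Hochberg adjustment, which stands behind every adjusted p in the text unless another tool is named. In cdKO sham the same gene stood at 884, 343 and 775 CPM, and in cdKO overload at 372, 369 and 353 CPM. The 3 overloaded cdKO libraries were nearly equal, and the groups overlapped through cdKO sham replicate 2, the only sham library under 400 CPM. The difference in cdKO was -0.87 (SE 0.30, 95% interval -1.47 to -0.26) and missed the threshold with an adjusted p of 0.053. It passed without cdKO sham replicate 2 (-1.21, adjusted p 0.00624), with upper-quartile factors (adjusted p 0.046), in DESeq2 (adjusted p 0.0362) and in limma voom (adjusted p 0.0159). Averaged over the genotypes, Cebpd fell by 1.35 (SE 0.21, adjusted p 2.57e-05).

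Cebpb (chromosome 2, 167688915 to 167690418, plus strand), its partner in the early wave, was counted at 145 to 694 per library. Its level was 385, 775 and 470 CPM in control sham and 472, 450.5 and 573 CPM in control overload. In cdKO it was 726, 224 and 669 CPM after sham and 596, 376 and 695 CPM after overload. Sham libraries spanned the overloaded ones in both genotypes. The difference was -0.13 in control (SE 0.36, adjusted p 0.827) and 0.05 in cdKO (SE 0.36, adjusted p 0.953), and its sign changed with the setting. Within groups Cebpb and Cebpd deviated together. Both were lowest of their group in cdKO sham replicate 2 and highest of their group in control sham replicate 2. The correlation of their deviations from the group means was 0.742 over 12 libraries, which share library preparation and depth. Reads of the 2 genes cannot be told apart from those of opposite-strand neighbours where strand was not used in counting, but these neighbours, Tmem189 beside Cebpb and Spidr beside Cebpd, had at most 17 and 13 counts.

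The late factors were near the limit of detection. Cebpa (chromosome 7, 35119293 to 35121928, plus strand) had 2 to 19 counts per library. It stood at 11.3, 16.4 and 6.48 CPM in control sham and at 13.8, 12.3 and 9.34 CPM in control overload, which overlap. In cdKO it was 16.5, 15.6 and 15.5 CPM after sham, against 3.09, 9.10 and 13.5 CPM after overload. The cdKO groups did not overlap, as was true in this direction of 14.7% of tested genes. The lowest of these libraries had 2 counts, and the difference of -0.83 did not pass (SE 0.56, adjusted p 0.358). In control the difference was -0.05 (SE 0.56, adjusted p 0.961).

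Pparg (chromosome 6, 115360951 to 115490399, plus strand), the receptor that drives the final step to an adipocyte, was too low to test, with 0 to 6 counts in a library. Its counts were 3, 3 and 2 in control sham, 3, 5 and 0 in control overload, 4, 3 and 2 in cdKO sham, and 0, 6 and 3 in cdKO overload. Each group therefore summed to 8 or 9 counts. Relative to depth, sham over overload gave a ratio of 2.01 in control (exact 95% counting interval 0.656 to 6.13) and 1.14 in cdKO (0.401 to 3.24), and both intervals include no change. Intervals of this kind cover counting error only. A difference in Pparg was not detectable at this depth.

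**Figure D1:**
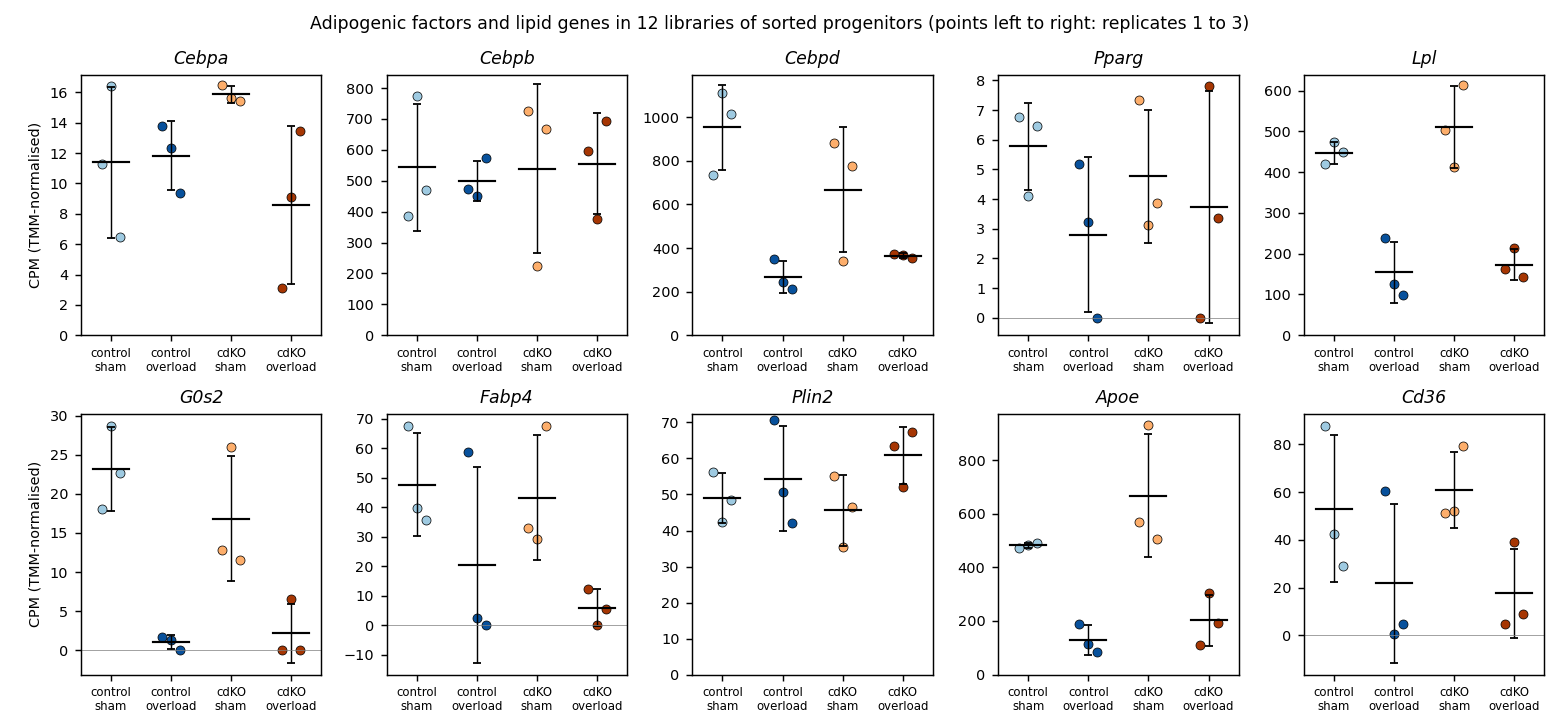
Levels of the 10 genes in 12 libraries, in TMM-normalised CPM, by group. Points are libraries (replicates 1 to 3 from left to right), bars are the group mean and lines are ± SD (n = 3). Overloaded libraries lie below all sham libraries for Lpl, G0s2 and Apoe, while Cebpb and Plin2 overlap, and Fabp4 and Cd36 are high in 1 control overload library.

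Lpl, the lipase that frees fatty acids from lipoproteins, was lower after overload by nearly the same amount in both genotypes. Lpl (chromosome 8, 68880491 to 68907448, plus strand) stood at 419, 473 and 450.3 CPM in control sham and at 239.5, 125 and 99.2 CPM in control overload. In cdKO it stood at 504, 412 and 613 CPM after sham and at 162, 214.5 and 143 CPM after overload. All 6 overloaded libraries lay under all 6 sham libraries, as was the case, in the lower direction, for 6.75% of tested genes. The group means were 447 ± 27.2 and 155 ± 74.6 CPM in control and 510 ± 100.3 and 173 ± 37.2 CPM in cdKO (SD, n = 3). Lpl fell by 1.55 in control (SE 0.29, 95% interval -2.14 to -0.97, adjusted p 0.000379) and, with the same size, in cdKO (SE 0.28, adjusted p 0.000747). The interaction, which asks whether the change differs with genotype, was -0.00 (SE 0.45, adjusted p 1). Its 95% interval ran from -0.93 to 0.93. The SE is the size of the change over the root of F. That ratio is unstable for a change this near 0, so the interval is approximate. With the Y-linked covariate Lpl was at -1.07 in control (adjusted p 0.0382) and -1.69 in cdKO (adjusted p 9.61e-05), with an interaction of -0.61 (adjusted p 0.999).

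Cd36 and Fabp4, which take up and carry fatty acids, were lower in every overloaded cdKO library than in any cdKO sham library, whereas in control 1 overloaded library was within the sham range, and neither gene passed. Cd36 (chromosome 5, 17781690 to 17888801, minus strand) had 87.8, 42.4 and 29.2 CPM in control sham, and 60.3, 0.649 and 4.67 CPM in control overload. The last 2 values rest on 1 and 4 counts, while the first rests on 35. In cdKO it had 51.3, 52.1 and 79.3 CPM after sham and 4.64, 39.0 and 8.98 CPM after overload, so the cdKO groups did not overlap, as for 14.7% of tested genes, and the control groups did. The difference was -1.64 in control (SE 1.17, 95% interval -4.28 to 1.01, adjusted p 0.359) and -1.76 in cdKO (SE 1.11, adjusted p 0.36).

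Fabp4 (chromosome 3, 10204088 to 10208576, minus strand) had the same odd library. It stood at 67.6, 39.7 and 35.6 CPM in control sham and at 58.6, 2.60 and 0 CPM in control overload. Without replicate 1 the overloaded control libraries held 4 and 0 counts. In cdKO the levels were 33.0, 29.2 and 67.7 CPM after sham and 12.4, 0 and 5.61 CPM after overload. These groups did not overlap, as for 14.7% of tested genes in this direction. The difference was -1.55 in control (SE 1.18, 95% interval -4.22 to 1.13, adjusted p 0.395) and -2.85 in cdKO (SE 1.36, adjusted p 0.217), and -2.20 averaged over genotypes (SE 0.90, adjusted p 0.0945).

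Fabp4 and Cd36 passed the filter on low counts only through their sham libraries, so that filter favours lower values after overload. Leaving out control overload replicate 1 changed the calls in control. The difference became -4.68 for Fabp4 (adjusted p 0.000153) and -4.49 for Cd36 (adjusted p 0.0019), and limma voom with quality weights, which down-weights libraries, gave -4.37 (adjusted p 0.0124) and -3.86 (adjusted p 0.00106). Fabp4 in cdKO also passed without that library (adjusted p 0.00255), in a fit without robust weighting (0.0453) and in voom (0.0199). Cd36 in cdKO passed in voom (adjusted p 0.0123) and in a fit to only the groups compared (adjusted p 0.0307). With the summed Y-linked level as a covariate, the Fabp4 difference was -0.15 in control (adjusted p 0.945), -3.68 in cdKO (adjusted p 0.0131) and -1.91 averaged over genotypes (adjusted p 0.0212).

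Apoe was lower after overload in both genotypes. Apoe (chromosome 7, 19696109 to 19699188, minus strand) stood at 473, 484 and 492 CPM in control sham, a narrow range, and at 189.5, 113 and 82.9 CPM in control overload. In cdKO it stood at 568, 931 and 504.5 CPM after sham and at 111, 303 and 194 CPM after overload. All 6 overloaded libraries lay below all 6 sham libraries, as for 6.75% of tested genes. It fell by 1.93 in control (SE 0.34, 95% interval -2.64 to -1.22, adjusted p 0.000351) and by 1.72 in cdKO (SE 0.33, adjusted p 0.00157). The interaction was 0.21 (SE 0.46, 95% interval -0.75 to 1.17, adjusted p 0.981).

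The droplet genes parted. G0s2, the inhibitor of the lipase Pnpla2, was nearly lost after overload, and the droplet coat Plin2 was not lower. G0s2 (chromosome 1, 193272161 to 193273217, minus strand) had 8, 21 and 7 counts in control sham (18.02, 28.7 and 22.7 CPM) and 1, 2 and 0 in control overload. In cdKO it had 7, 25 and 6 counts after sham (12.8, 26.0 and 11.6 CPM) and 0, 5 and 0 after overload. All overloaded libraries lay below all sham libraries, as did those of 6.75% of tested genes. Relative to depth, sham exceeded overload by a ratio of 24.1 in control (exact 95% counting interval 7.61 to 122, from 36 and 3 counts) and 8.67 in cdKO (3.41 to 28.2, from 38 and 5 counts). In the fit, G0s2 fell in control (-4.34, SE 0.93, adjusted p 0.00153) and in cdKO (-2.91, SE 0.86, adjusted p 0.0264). These fitted values depend on the prior count, and the gene passed the filter on low counts only through its sham libraries.

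The call for G0s2 in cdKO was fragile. Without cdKO overload replicate 2, the single overloaded cdKO library with a count, the fitted difference was -6.66. It did not pass without control sham replicate 2 (adjusted p 0.0541), cdKO sham replicate 2 (0.17), cdKO overload replicate 1 (0.0973) or cdKO overload replicate 3 (0.133), nor with the Y-linked covariate (0.0516). DESeq2 gave it no adjusted p there, and the filter on low counts removed it from the fit to only the cdKO groups and from thinned counts. Its interaction was 1.43 (SE 1.38, 95% interval -1.40 to 4.26, adjusted p 0.967), too wide to rank the genotypes.

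Plin2 (chromosome 4, 86648386 to 86670060, minus strand) stood at 56.3, 42.4 and 48.6 CPM in control sham and at 70.6, 50.6 and 42.0 CPM in control overload. In cdKO it was 55.0, 35.4 and 46.4 CPM after sham and 63.3, 52.0 and 67.4 CPM after overload. Groups overlapped in both genotypes. The difference was 0.14 in control (SE 0.29, 95% interval -0.47 to 0.75, adjusted p 0.771) and 0.44 in cdKO (SE 0.29, adjusted p 0.338).

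G0s2 owes its place among the tested genes to its sham libraries, and so do Cebpa, Fabp4 and Cd36. Of these only G0s2 passed, so members are counted with and without it. With it, 4 of the 9 tested passed in control FAPs (Cebpd, Lpl, G0s2 and Apoe), all lower, where 21.7% of all tested genes passed and 11.0% passed as lower. Without it the count was 3 of 8 in control and 2 of 8 in cdKO, and these 8 still hold Cebpa, Fabp4 and Cd36. In cdKO 3 passed (Lpl, G0s2 and Apoe), all lower, against 13.0% of all genes, 6.68% as lower. Averaged over genotypes 4 passed, against 33.7% of all genes and 17.0% as lower. The median difference of the 9 was -1.55 in control, against -0.05 over all tested genes. Lpl and Apoe passed in both genotypes in each of 22 alternatives, Cebpd passed in each of 22 in control and 6 of 22 in cdKO, and G0s2 passed in cdKO in 14 of the 19 that tested it. The 2 overload comparisons use separate libraries but share 1 estimate of the spread.

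**Figure D2:**
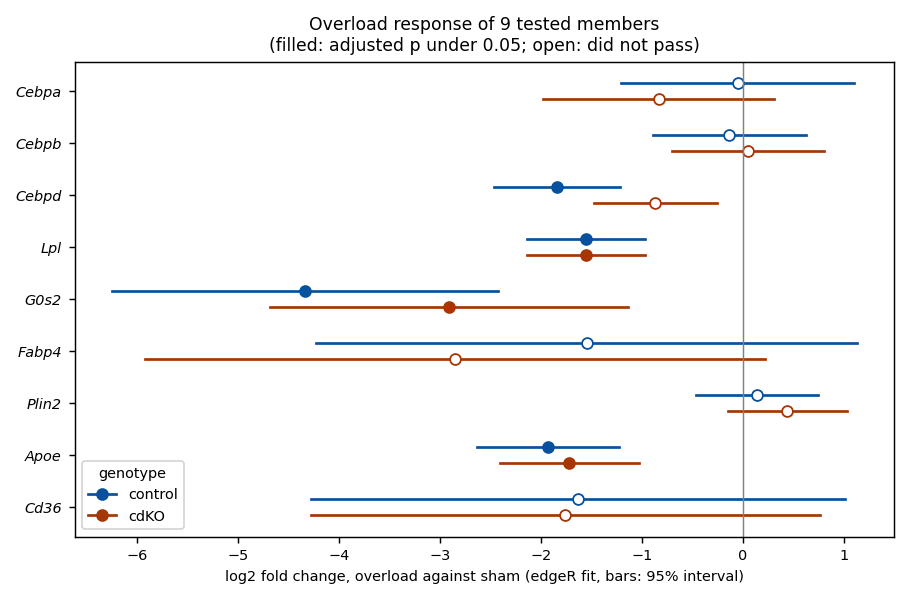
Fitted log2 fold change of overload against sham for the 9 tested genes in control and cdKO FAPs, with 95% intervals from the edgeR fit. Filled points passed at an adjusted p under 0.05. Lpl is at -1.55 in both genotypes, Cebpd is at -1.84 in control and -0.87 in cdKO, and the intervals of Fabp4 and Cd36 are wider than those of the other 7 genes.

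No member passed between the genotypes. This held for cdKO against control in sham muscle, in overloaded muscle, averaged over loads, or for the interaction, where 0.0123%, 0.0368%, 0.0123% and 0% of all tested genes passed, and none did under any alternative, DESeq2 and limma voom included. At an unadjusted p under 0.05, the edgeR test gave no member in sham or overloaded muscle, Apoe averaged over loads and Cebpd for the interaction. The share of all tested genes under that threshold was not counted, so no excess can be read from this. Apoe in cdKO sham lay above control sham in every library, as did 5.44% of tested genes, but the difference of 0.47 did not pass (SE 0.32, 95% interval -0.20 to 1.14, adjusted p 0.999). In overloaded muscle it was 0.68 (SE 0.34, 95% interval -0.01 to 1.38, adjusted p 0.715), and averaged over loads 0.58 (SE 0.23, 95% interval 0.10 to 1.06, unadjusted p 0.0212, adjusted p 0.902).

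Cebpd ran in opposite directions under the 2 loads. In sham muscle cdKO stood lower by a fitted difference of -0.52 (SE 0.29, adjusted p 0.999), with overlap. In overloaded muscle it stood higher, by 0.45 (SE 0.30, adjusted p 0.831), and each cdKO library lay above each control library, as for 5.38% of tested genes. The interaction was 0.97 (SE 0.42, 95% interval 0.11 to 1.83), with an unadjusted p of 0.0281 and an adjusted p of 0.925. So the call of Cebpd in control and its absence in cdKO do not show that the genotypes differ. With the Y-linked covariate the overload difference in Cebpd was -1.17 in control (adjusted p 0.0442) and passed in cdKO as well (adjusted p 0.0104). The interaction was then 0.16 (adjusted p 0.999), and the genotype difference in overloaded muscle was -0.24.

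Other cell types in the sort were read through marker lists. Beside their calls stand the shares over all tested genes, 10.6% higher and 11.0% lower in control, and 6.37% and 6.68% in cdKO. Markers of the mature adipocyte were scarce. Of 15 listed, only Acaca and Fasn, enzymes of fatty acid synthesis found in many cells, had enough counts to be tested, and neither passed. Cfd and Cidec had 0 counts in all 12 libraries, Adipoq had 0 to 3, Plin1 0 to 2 and Lep 0 to 1. The list summed to 43.8 to 110 CPM in control sham, 44.1 to 86.2 in control overload, 49.98 to 78.8 in cdKO sham and 52.8 to 55.9 in cdKO overload. Macrophages can express Apoe, Lpl and Cd36. Their markers summed to 142 to 165, 119 to 181, 73.9 to 125 and 142 to 225 CPM in the same order, and of the 4 tested among 19, Gpnmb fell in control and Lgals3 and Spp1 rose in cdKO. C1qa had at most 1 count in a library and Lyz2 was counted in 1 library.

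Other lists held genes that passed with load as well, where 10.6% of all tested genes rose and 11.0% fell in control. In cdKO these shares were 6.37% and 6.68%. Of Schwann and nerve markers, the 2 tested, Ngfr and Pmp22, fell in both genotypes, and the sum was 342 to 554 CPM in control sham, 186 to 291 in control overload, 522 to 635 in cdKO sham and 266.5 to 387 in cdKO overload. Of 3 tested muscle stem cell markers, Msc and Vcam1 rose and Des fell in control, and Vcam1 rose in cdKO, with sums of 76.6 to 77.8, 101 to 141, 80.2 to 84.3 and 114 to 139 CPM in the same order. Pax7, Myf5 and Myod1 were too low to test, with 0 to 6, 0 to 16 and 0 to 1 counts per library. Erythroid markers summed to 281 CPM in control overload replicate 1, 116 and 129.5 CPM in cdKO sham replicates 2 and 3, and 0 to 49.0 CPM in the other 9 libraries. Myofibre markers summed to 13.6 to 178 CPM. Over the 12 libraries this sum had a Pearson r of 0.784 with Cd36, 0.699 with Lpl, 0.692 with Cebpd and 0.657 with Fabp4. The value was 0.527 with Apoe, 0.462 with G0s2, 0.177 with Cebpb, 0.136 with Plin2 and -0.059 with Cebpa. The part of these cells in the members' values was not tested.

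Endothelial markers moved with several members. Capillary endothelium contains Cd36 and Fabp4 and displays Lpl on its surface. Of 19 listed, 11 were tested. In control Ly6c1 and Tek fell, in cdKO Aqp1, Tek and Tie1 fell, none rose, and 6 fell averaged over genotypes. Over all tested genes 11.0% fell in control, 6.68% in cdKO and 17.0% averaged over genotypes. Some of those that fell had low counts (0 to 15 per library for Tie1, 0 to 18 for Cdh5 and 1 to 15 for Kdr). The filter on low counts favours falls in genes that passed it only through sham libraries. The list summed to 1858 to 1889 CPM in control sham, 453 to 1072 in control overload, 1311 to 1662 in cdKO sham and 788 to 1398 in cdKO overload. Most of this sum was Ly6c1 (370 to 1671 CPM), which is also made by mesenchymal cells, so the sum was repeated without it, a choice made after seeing the data. The other 18 markers summed to 455, 194 and 314 CPM in control sham, 319, 63.0 and 82.9 CPM in control overload, 196, 298 and 416 CPM in cdKO sham, and 85.0, 127 and 88.7 CPM in cdKO overload. Control overload replicate 1, the library in which Cd36 and Fabp4 remained high, thus lay within the sham range, and the other 5 overloaded libraries lay below all sham libraries.

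The sum without Ly6c1 correlated across the 12 libraries, on the log2 scale, with Cd36 (Pearson r 0.912), Lpl (0.854), Fabp4 (0.853), Apoe (0.772), G0s2 (0.739) and Cebpd (0.643), but not with Plin2 (-0.14), Cebpb (-0.24) or Cebpa (0.337) to that extent. These points share depth, preparation and the split by load, so the values are descriptive. In control overload replicate 1 the sum without Ly6c1 was in the sham range and the full sum was below it. There Cd36 and Fabp4 stood at 60.3 and 58.6 CPM, within the range of control sham. Lpl, Apoe and Cebpd stood at 239.5, 189.5 and 352 CPM, below each control sham library. This is 1 library, and the endothelial part in these results was not tested. With the Y-linked level as a covariate, the overload difference in control was -1.96 for Apoe (adjusted p 0.00554), -1.07 for Lpl (0.0382) and -1.17 for Cebpd (0.0442). It was -5.56 for G0s2 (0.00669), -0.85 for Cd36 (0.776) and -0.15 for Fabp4 (0.945). Control overload replicate 1 also had a higher Y-linked level (217 CPM) than replicates 2 and 3 (64.9 and 74.7 CPM). The covariate and the endothelial sum thus split this group alike, and their parts cannot be told apart there. Markers of pericytes and smooth muscle moved likewise. Of 8 tested, 3 fell in control and 2 in cdKO, where 11.0% and 6.68% of all tested genes fell. Their sum was 504.5 to 629 CPM in control sham and 214 to 365 CPM in control overload, 508 to 682 in cdKO sham and 380 to 420 in cdKO overload.

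**Figure D3:**
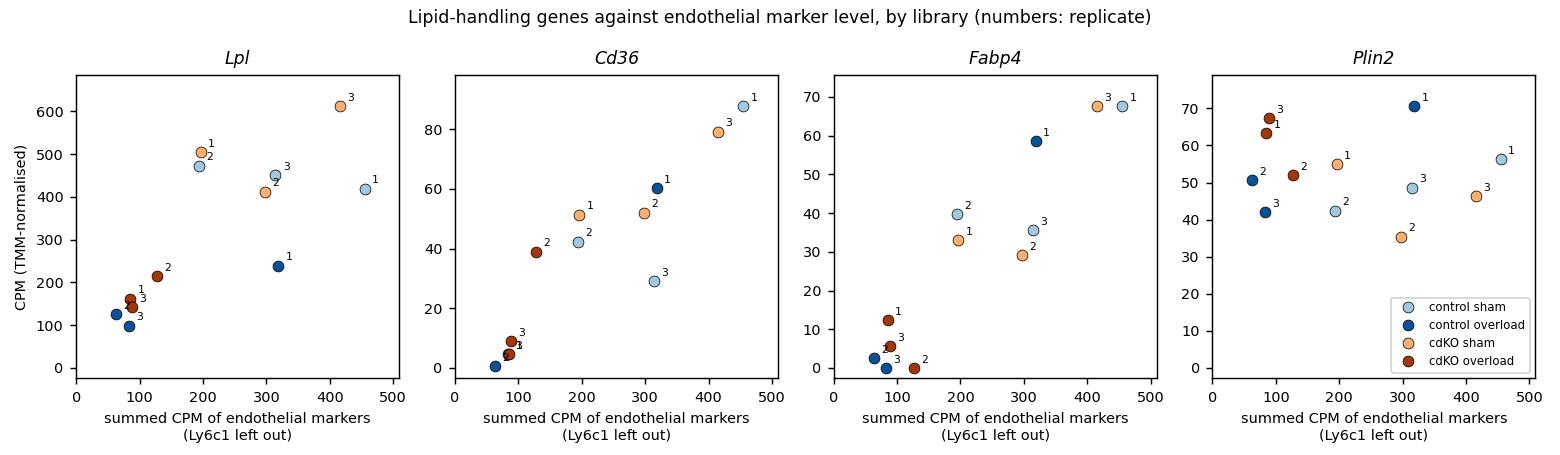
Level of Lpl, Cd36, Fabp4 and Plin2 (TMM-normalised CPM) against the summed CPM of 18 endothelial markers, Ly6c1 left out, in each of 12 libraries; colours are groups and numbers are replicates. Control overload replicate 1 lies among the sham libraries for Cd36 and Fabp4 at 319 CPM of markers, Lpl is lower there than in sham libraries, and Plin2 shows no trend.

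The surrounding pathway was read through lists of other genes, which leave out the 10 members. They were drawn up with earlier results of these data known, so their counts are descriptions. The filter on low counts favours a difference toward the load through which a scarce gene passed it. For these lists that limit is stated below only for Angptl4, but it may hold for others, such as Zbtb16 (1 to 41 counts per library) and Cyp27a1 (1 to 33). Over all tested genes, 10.6% rose and 11.0% fell in control, 6.37% rose and 6.68% fell in cdKO, and 16.8% rose and 17.0% fell averaged over genotypes. The list of adipogenic transcription factors and co-regulators, which also held the RNA-binding protein Zfp36, had 24 tested genes. Of these, 0 rose and 5 fell in control, 0 rose and 7 fell in cdKO, and 16 fell averaged over genotypes. The median difference was -0.70 in control and -0.82 in cdKO. Zfp36, an RNA-binding protein, fell by 1.97 in control (SE 0.29, adjusted p 3.36e-05) and by 1.37 in cdKO (SE 0.29, adjusted p 0.00252), from 657 ± 42.4 to 168 ± 39.4 CPM and from 567 ± 57.4 to 219 ± 114 CPM (SD, n = 3). Also lower in both, with values for control and then cdKO, were Klf9 (-1.30 and -0.92), Ebf2, which marks preadipocytes (-1.45 and -1.43), and Ncoa1, a coactivator of nuclear receptors (-1.37 and -1.39). Klf5 fell in cdKO (-1.04, adjusted p 0.00834) and was at -0.65 in control (adjusted p 0.0723).

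Of 21 tested genes that restrain adipogenesis, 0 rose, 8 fell and 13 did not pass in control, and 0 rose, 7 fell and 14 did not pass in cdKO. Averaged over genotypes 2 rose, 9 fell and 10 did not pass. Klf2, which represses Pparg, fell by 1.85 in control (SE 0.30, adjusted p 8.91e-05) and by 2.01 in cdKO (SE 0.31, adjusted p 0.00013). Id3 (-2.32 and -1.81), Foxo1 (-1.56 and -1.28), Wnt5a (-0.97 and -1.82) and Dlk1, the preadipocyte factor Pref-1 (-1.18 and -1.52), also fell in both. Lmna and Tgfb1 rose only averaged over genotypes (0.46 and 0.77, adjusted p 0.0305 and 0.0429).

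Fatty acid uptake genes went both ways. Of 15 tested, 3 rose and 1 fell in control and 2 rose and 1 fell in cdKO. Angptl4, a secreted inhibitor of Lpl, rose by 2.94 in control (SE 0.54, adjusted p 0.000351) and by 2.64 in cdKO (SE 0.57, adjusted p 0.00322), from 5.48 ± 4.75 to 50.2 ± 7.74 CPM and from 4.18 ± 3.77 to 28.2 ± 12.7 CPM. Its level went opposite to that of Lpl. But Angptl4 passed the filter on low counts only through its overloaded libraries, so that filter favours a rise. Acsl4, which activates arachidonic acid to its CoA form, rose by 2.04 and 2.29. Cav1 rose in control (0.82, adjusted p 0.0106), where cdKO gave 0.29 (adjusted p 0.438). Vldlr, a lipoprotein receptor that works with Lpl, fell in both (-1.85, adjusted p 8.39e-05, and -1.44, adjusted p 0.00167).

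For lipid droplets and lipolysis, 1 of 13 rose and 2 fell in control and 1 rose in cdKO. Hilpda, like G0s2 an inhibitor of the lipase Pnpla2, rose by 1.67 (SE 0.33, adjusted p 0.000695) in control and by 1.30 in cdKO (SE 0.33, adjusted p 0.0109). Pnpla2 itself fell in control by 1.85 (SE 0.42, adjusted p 0.00256) and was at -0.75 in cdKO (SE 0.43, adjusted p 0.27). Lipa, the lysosomal lipase, fell in control by 1.03 (adjusted p 0.0218). So G0s2 and Hilpda, with the same target, were on opposite sides of no change. None of 14 tested genes of fatty acid oxidation passed in either genotype.

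Around Apoe, 1 of 11 tested genes of cholesterol efflux and apolipoproteins rose in control and 5 fell, and 2 fell in cdKO. Cyp27a1, a sterol hydroxylase, fell in both (-2.80, SE 0.63, adjusted p 0.00237, and -2.04, SE 0.62, adjusted p 0.0302). Mylip, which degrades lipoprotein receptors, fell in both (-1.67 and -1.91). Abca1, which exports cholesterol to apolipoproteins, fell in control (-1.31, adjusted p 0.0113), as did Apod (from 1115 ± 186 to 282 ± 192 CPM, adjusted p 0.0292) and Clu (-2.01, adjusted p 0.0388), while in cdKO the differences were -0.59, -1.64 and -1.74 and did not pass. Lpcat3 rose in control by 1.09 (adjusted p 0.021).

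Glucocorticoids are a standard inducer of Cebpd and of fat cell formation in culture. Of 16 tested genes that they induce, 0 rose and 10 fell in control, with a median difference of -1.31, and 0 rose and 6 fell in cdKO, with a median of -0.73. Hsd11b1, the enzyme that regenerates active glucocorticoid, fell by 1.83 (SE 0.24, adjusted p 1e-05) in control and by 1.51 (SE 0.24, adjusted p 0.000254) in cdKO. Tsc22d3 (-2.20 and -1.67), Zbtb16 (-2.93 and -2.67), Cdkn1c (-2.62 and -2.15) and Dusp1 (-1.94 and -1.33) fell in both. Fkbp5, also a common readout of the receptor, was at -0.29 and -0.30 and did not pass (adjusted p 0.573 and 0.61).

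**Figure D4:**
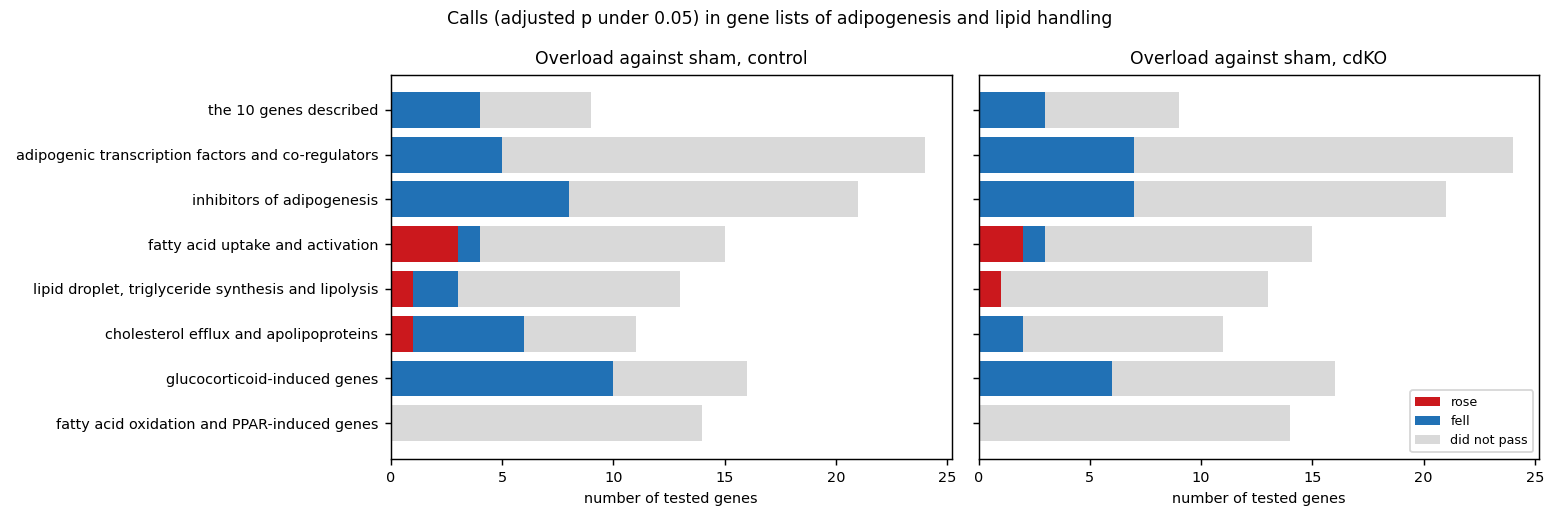
Number of tested genes that rose, fell or did not pass at an adjusted p under 0.05 (edgeR) after overload, in control (left) and cdKO (right), for the members and 7 related lists. Falls outnumber rises in the lists of transcription factors and co-regulators, inhibitors and glucocorticoid-induced genes. Rises and falls are mixed for fatty acid uptake, and no oxidation gene passed.

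Finally, the genes closest to each tested member were sought by Pearson correlation of log2 CPM over the 12 libraries, among 5429 genes with at least 20 CPM on average. Apoe was closest to Htra3 (0.986) and Apod (0.981), and G0s2 to Cdkn1c (0.985) and Inmt (0.978). Lpl was closest to Myoc (0.974) and Cdkn1a (0.972), and Cebpd to Myd88 (0.984) and Ifi204 (0.954). Cd36 was closest to Gria3 (0.955), Fabp4 to Armh4 (0.917) and Clu (0.916), Plin2 to Slc25a37 (0.921), Cebpb to Ifrd1 (0.941) and Cebpa to Smim19 (0.885). Among members, Apoe correlated with G0s2 (0.925) and Lpl (0.915), and Plin2 did not follow G0s2 (-0.55). These values describe 12 libraries that fall into 2 loads and carry no test.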

How the data were processed

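RNA of 12 libraries was analysed from 1 table of counts per gene that the authors deposited, whole numbers that had not been normalised. Per the labels' protocols, cells were sorted into lysis buffer and made into libraries by the method of Hashimshony and co-workers. The submitters' processing notes list GRCm38 and the tools featureCounts 2.0.1, HISAT2 2.2.1, DESeq2 1.26.0 and Trim Galore 0.6.6. Strand setting, molecular identifiers and annotation release are not stated in the labels. Without identifiers reads are not independent molecules, so counting intervals cover counting error only.

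Tests used edgeR 4.0.16 in R 4.3.3: filterByExpr, TMM factors and 1 robust quasi-likelihood fit with a mean per group over all 12 libraries, two-sided, with Benjamini-Hochberg adjustment over 8161 genes and a threshold of 0.05. A standard error is the size of the log2 change over the root of F. CPM used TMM sizes, and correlations used log2 CPM with a prior count of 2. The test was tried on simulated counts. All 54100 identifiers matched GENCODE M21, which gave positions. Ddit3 had more than 1 row, and the row with more counts was used. No column was left out. No 2 libraries of a group agreed within sampling noise, so none was merged.

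The members and lists were chosen with earlier results of these data known. The genes named are the 10 members, Yap1, Wwtr1 and Pdgfra, up to 4 genes per list, direction and comparison with the smallest p among those that passed, and the 2 most correlated genes of each member; a few other list genes were named after their values were seen. Alternatives were DESeq2 1.42.0, limma 3.58.1 voom with quality weights, RLE or upper-quartile factors, no filter, a non-robust fit, thinned counts, only the groups compared, a replicate block, the Y-linked level as a covariate, and each library left out in turn. The endothelial sum without Ly6c1 was added after seeing the data.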

Additional observations from a re-analysis of the deposited data

How the results depend on the processing

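The signs that changed belonged to differences that had not passed, most of them near 0. In control, the overload difference of Cebpb became 0.068 in voom and 0.61 with the Y-linked covariate, that of Plin2 -0.035 in voom and -0.11 in thinned counts, and that of Cebpa 0.078 without a filter and 0.083 with the covariate. In cdKO, that of Cebpb became -0.001 with upper-quartile factors, -0.021 in voom, -0.061 in thinned counts and -0.098 with the covariate. Averaged over genotypes, that of Cebpb became 0.023 in voom, 0.078 without a filter and 0.26 with the covariate. The Lpl interaction became 0.17 in voom and 0.026 with the replicate block (-0.61 with the covariate), and the Cebpd genotype difference became 0.11 averaged over loads in voom and -0.24 in overload with the covariate. With a library left out, ranges were -0.22 to 0.40 (Cebpa) and -0.31 to 0.27 (Cebpb) for overload in control, -0.35 to 0.32 (Cebpb) in cdKO, -0.23 to 0.18 (Cebpb) averaged, -0.002 to 0.32 (Plin2) in control, -0.27 to 0.37 (Lpl) and -0.20 to 0.51 (Apoe) for the interaction, and -0.18 to 0.11 (Cebpd) for genotype averaged over loads. The cause of these changes was not tested.

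Counts of genes passing moved as follows. For overload in control (1768), thinned counts gave 775 and the covariate 707, and leaving out a library gave 1060 (without control overload replicate 2) to 2508. For overload in cdKO (1065), no filter gave 702, thinned counts 442 and left-out libraries 423 to 1287. Averaged (2753), thinned counts gave 1336. For cdKO in sham (1), DESeq2, voom and the fit to only the groups compared gave 2, thinned counts 0 and left-out libraries 0 to 1. For cdKO in overload (3), no filter gave 17, thinned counts and only the groups compared 1, and left-out libraries 1 to 34, the highest without control overload replicate 1. For the interaction (0), DESeq2 gave 1, no filter 10 and left-out libraries 0 to 1, and for cdKO averaged over loads (1), DESeq2 and voom gave 2, no filter 4 and left-out libraries 1 to 2. Members passing for overload in cdKO (3) were 6 in voom and 2 to 5 with a library left out. The number of genes tested was 5586 with thinned counts and 37990 without a filter, against 8161 in the main fit. What moved the counts of genes passing was not tested.

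Replicate numbers were not seen to pair the libraries: deviations of same-numbered libraries correlated at -0.228 to 0.268 over 18 pairs, and 4 of 12 libraries correlated best with their own number. With a replicate block, 1752, 1035 and 2723 genes passed for overload in control, cdKO and averaged, and Fabp4 passed averaged over genotypes (-2.52, adjusted p 0.0451 in edgeR). Low counts limit Cebpa, Pparg, G0s2, Fabp4 and Cd36. G0s2 had no adjusted p in cdKO in DESeq2, thinned counts and the fit to only the groups compared.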
